A study of Mus musculus with 5 samples.

Results

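The genes described here encode 5 alpha subunits (Gabra2, Gabra3, Gabra4, Gabra5 and Gabra6) and the delta subunit (Gabrd) of the GABA-A receptor. They were taken by symbol, with earlier results of these data known, and make up 6 of the 55421 genes in the deposited count table. Whole cerebella of mice were profiled by bulk RNA-seq at postnatal day 14, in 2 control libraries (genotype Pcp2 Cre/+; Yy1 fx/+) and 3 Yy1 cKO libraries (Pcp2 Cre/+; Yy1 fx/fx). All animals therefore carried Pcp2-Cre, a recombinase driven by a promoter of Purkinje cells, and at least 1 floxed copy of Yy1, and the groups differed in whether 1 or 2 copies were floxed. The controls were littermates of mixed sex, and YY1 is a zinc finger transcription factor.

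GABA-A receptors are chloride channels built from 5 subunits around a pore, and the alpha subunit sets where in the cell the receptor sits and which drugs it binds. Cerebellar neurons change their alpha subunits as they mature: Gabra2 and Gabra3 are known from young neurons, while Gabra6 appears in granule neurons once they have settled in the internal granule layer. Gabrd pairs with Gabra6 outside the synapse in granule neurons, where such receptors carry a steady, tonic current. The question asked of the data was which of these subunit transcripts differed when Purkinje cells lacked intact Yy1, and whether the mix of subunits shifted.

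The 5 alpha genes differ at a codon that separates 2 pharmacological classes. The stretch around it is shown so that the shift in the mix of these 5 genes can be read in those terms. The codon belongs to the binding site of classical benzodiazepines, where histidine (codon CAC) allows diazepam to bind and arginine (codons CGG and AGG) prevents it. Each line gives 39 coding bases 5′ to 3′ from GENCODE M21 transcripts on GRCm38, with that codon in capitals. All 5 genes lie on the minus strand, and each stretch lies within 1 coding exon.

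Gabra2, exon 5 of 10, chr5:71014487-71014525: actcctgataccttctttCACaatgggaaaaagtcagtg
Gabra3, exon 5 of 10, chrX:72501150-72501188: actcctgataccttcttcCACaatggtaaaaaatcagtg
Gabra5, exon 5 of 10, chr7:57488873-57488911: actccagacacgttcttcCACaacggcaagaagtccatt
Gabra4, exon 4 of 9, chr5:71641134-71641172: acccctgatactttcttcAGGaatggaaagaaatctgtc
Gabra6, exon 4 of 9, chr11:42317629-42317667: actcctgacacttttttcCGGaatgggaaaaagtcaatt

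Over this stretch Gabra6 shared 31 of 39 bases with Gabra2, 30 with Gabra3 and Gabra5, and 29 with Gabra4. Gabra2, Gabra3 and Gabra5 thus carry the histidine codon and Gabra4 and Gabra6 an arginine codon. The searched pattern was not found in Gabrd.

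Total counts were 17424860 to 20305705 per library. Yy1 cKO 3 stood apart from the other 4 libraries on the second principal component (17% of the variance of log2 CPM), so calls are also given without it. Y-linked Ddx3y had 1175 and 1471 counts in control 1 and Yy1 cKO 3 and 0 in the rest. Yy1 transcript itself did not differ (74.2 and 77.0 CPM on average, log2 fold change 0.05 ± 0.065, SE), and gene-level counts do not separate the deleted part. Tissue identity was read from 8 cerebellar genes, and all 8 were detected. Their summed level was 4087 to 4151 CPM in the controls and 4527 to 4671 CPM in Yy1 cKO. By the edgeR test below, 1 was higher (Fat2) and 2 were lower: Barhl1 (47.1 to 13.2 CPM) and En1 (4.84 to 3.07 CPM). Over all genes tested, 10.7% were called higher and 12.6% lower. The 2 lower became 1 without Yy1 cKO 2 or Yy1 cKO 3, and the 1 higher became 3 without Yy1 cKO 3. Nor did all of these calls hold without control 1 or without control 2, fits that leave 1 control. The labels do not say that replicates came from separate animals, so p-values measure the spread between these libraries. In whole tissue, fewer cells of a type and less RNA per cell cannot be told apart.

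Of the 6 genes, all of which passed the filter on low counts, Gabra6 and Gabrd were higher in Yy1 cKO, Gabra2 and Gabra3 were lower, and Gabra4 and Gabra5 did not pass the test (quasi-likelihood test of edgeR with Benjamini-Hochberg adjustment over 20388 genes, threshold 0.05). The 4 calls among 6 genes stood beside a background of 23.4% of all genes tested, with 10.7% called higher and 12.6% called lower. The median log2 fold change of the 6 was 0.27, against -0.00086 over all genes tested.

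**Figure D1:**
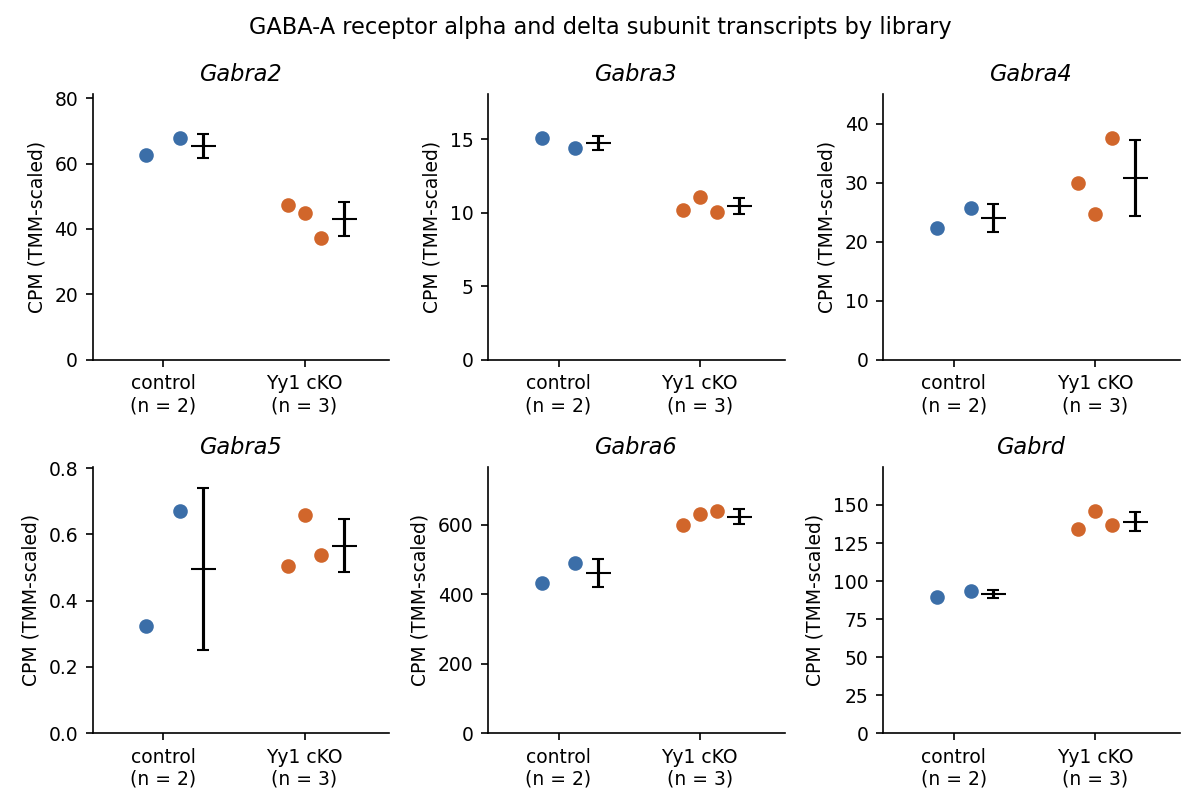
Level of each of the 6 subunit genes in every library, in TMM-scaled CPM. Points are libraries (blue, 2 control; orange, 3 Yy1 cKO) and the bars beside them are mean ± SD; the groups do not overlap for Gabra2, Gabra3, Gabra6 and Gabrd, and do for Gabra4 and Gabra5.

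Gabra6 (ENSMUSG00000020428.13, chromosome 11, 42306437 to 42321072, GRCm38) encodes the alpha subunit most closely tied to mature granule neurons. Control libraries 1 and 2 had 433 and 490 CPM (counts scaled to a common library total, with TMM factors), and Yy1 cKO libraries 1, 2 and 3 had 599, 631 and 638 CPM. Every Yy1 cKO library lay above both controls. The mean was 462 ± 39.9 CPM in the controls (SD, n = 2) and 623 ± 21.2 CPM in Yy1 cKO (SD, n = 3), a 1.35-fold rise (log2 fold change 0.43 ± 0.072, SE, adjusted p = 0.0022). The call held without Yy1 cKO 3 (0.41, adjusted p = 9.3e-05) and was closest to the threshold without control 1 (0.35, adjusted p = 0.047).

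Gabrd (ENSMUSG00000029054.8, chromosome 4, 155384980 to 155398112) encodes the subunit that marks extrasynaptic receptors. The controls had 89.6 and 93.6 CPM, and the Yy1 cKO libraries 134, 146 and 137 CPM. These groups were well apart, with a gap between them larger than the range within either. The rise was 1.52-fold (0.60 ± 0.061, SE, adjusted p = 1.3e-04), the smallest p of the 6 genes, and it held without Yy1 cKO 3 (0.61, adjusted p = 4.9e-07). Per kb of exon, Gabrd changed slightly more than its partner: the Gabrd to Gabra6 ratio was 0.179 and 0.165 for control 1 and 2 and lay at 0.194, 0.200 and 0.186 for Yy1 cKO 1 to 3. The groups did not overlap in this ratio, and the exact two-sided permutation test gave p = 0.1, the smallest value that 2 against 3 libraries allow. The difference in the log2 ratio was 0.17, and 0.11 without control 2.

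Gabra2 (ENSMUSG00000000560.9, chromosome 5, 70957597 to 71095849) encodes an alpha subunit of young neurons that Bergmann glia and interneurons also express. It fell from 62.7 and 67.9 CPM in the controls to 47.3, 44.8 and 37.2 CPM in Yy1 cKO. Yy1 cKO 3 had the lowest level, and the groups did not overlap. The controls were 1.51-fold higher (log2 fold change -0.60 ± 0.10, SE, adjusted p = 0.0029). Without Yy1 cKO 3 the log2 fold change was -0.50 (adjusted p = 2.8e-05), and without control 2 it was -0.54 (adjusted p = 0.045).

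Gabra3 (ENSMUSG00000031343.13, chromosome X, 72432681 to 72656848), known from young neurons and Golgi cells, had control levels of 15.1 and 14.4 CPM and Yy1 cKO levels of 10.2, 11.1 and 10.04 CPM. All 3 Yy1 cKO libraries were below both controls, with a 1.41-fold difference (-0.50 ± 0.11, SE, adjusted p = 0.0089). Leaving out either control ended the call: without control 1 (-0.46, adjusted p = 0.0998) and without control 2 (-0.53, adjusted p = 0.056). It held without Yy1 cKO 3 (-0.47, adjusted p = 0.0079). Because Gabra3 is X-linked, the libraries with Y-linked transcripts were also compared apart. Its log2 ratio was -0.59 between the 1 control and 1 Yy1 cKO library with Ddx3y, and -0.44 between the 1 control and 2 Yy1 cKO libraries without it, and these values have no replicate check. With Xist as a covariate the adjusted p was 0.016.

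Gabra4 (ENSMUSG00000029211.11, chromosome 5, 71569749 to 71658308), the usual partner of Gabrd in the forebrain, reached 22.4 and 25.7 CPM in control libraries and 30.05, 24.75 and 37.6 CPM in Yy1 cKO libraries. Yy1 cKO 2 lay between the controls, while Yy1 cKO 1 and 3 were above them. The log2 fold change of 0.36 ± 0.17 (SE) did not pass (adjusted p = 0.19). It passed without Yy1 cKO 2 (0.49, adjusted p = 0.042) and with no filter on low counts (0.36, adjusted p = 0.0043). Without Yy1 cKO 3 the log2 fold change was 0.19 (adjusted p = 0.20). Exons at the start of Gabra4 overlap those of Gabrb1 on the opposite strand over 46 bases, and the strand setting of the counting is not stated, so reads there cannot be told apart. The 2 libraries with Y-linked transcripts gave a log2 ratio of 0.75 for Gabra4 and the other 3 gave 0.09, with no replicate check.

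Gabra5 (ENSMUSG00000055078.7, chromosome 7, 57407672 to 57510059), the alpha subunit of hippocampal tonic receptors, was barely detected. Control libraries held 6 and 12 counts and Yy1 cKO libraries 10, 12 and 10, so the level was 0.32 to 0.67 CPM over all 5. The antisense gene Gm9962, which shares 148 exonic bases with it, had 0 to 2 counts per library. The groups overlapped, and at this depth no difference was detectable (0.19 ± 0.48, SE, adjusted p = 0.82).

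Levels were then set side by side per kb of exon, since longer genes collect more reads. In the controls Gabra6 stood highest at 185.5 ± 16.0 CPM per kb (SD, n = 2), followed by Gabrd at 31.9 ± 0.97, Gabra2 at 8.54 ± 0.48, Gabra4 at 3.96 ± 0.38, Gabra3 at 3.76 ± 0.13 and Gabra5 at 0.17 ± 0.082. Gabra4 and Gabra3 overlapped in the controls and all other neighbours in this order were apart. In Yy1 cKO the order of means was the same, with Gabra6 at 250.2 ± 8.5, Gabrd at 48.4 ± 2.1, Gabra2 at 5.64 ± 0.69, Gabra4 at 5.07 ± 1.1, Gabra3 at 2.66 ± 0.14 and Gabra5 at 0.19 ± 0.027 CPM per kb (SD, n = 3). There Gabra2 and Gabra4 overlapped, while Gabra3 lay below Gabra4 in every library.

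The share of each gene in the summed counts per kb of the 6 genes does not depend on library scaling. Gabra6 made up 78.7% and 79.9% in the control libraries and 79.9%, 79.9% and 80.7% in the Yy1 cKO libraries. Control 2 and Yy1 cKO 1 were equal to 3 digits, and the difference of the means, 0.84 percentage points, was close to the SD of the controls (0.81), although the level of Gabra6 rose 1.35-fold. That difference was 0.27 points without control 1 and 1.42 points without control 2. The share of Gabrd went from 14.1% and 13.2% to 15.5%, 16.0% and 15.0%. Gabra2 went from 3.71% and 3.61% to 2.06%, 1.85% and 1.53%, and Gabra3 from 1.74% and 1.49% to 0.86%, 0.89% and 0.80%. In percentage points the mean of Gabrd was 1.84 higher, and those of Gabra2 and Gabra3 differed by -1.845 and -0.76. Gabra4 (1.69 ± 0.035% and 1.62 ± 0.33%, SD, n = 2 and 3) and Gabra5 (0.070 ± 0.030% and 0.061 ± 0.0076%) overlapped between the groups.

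**Figure D2:**
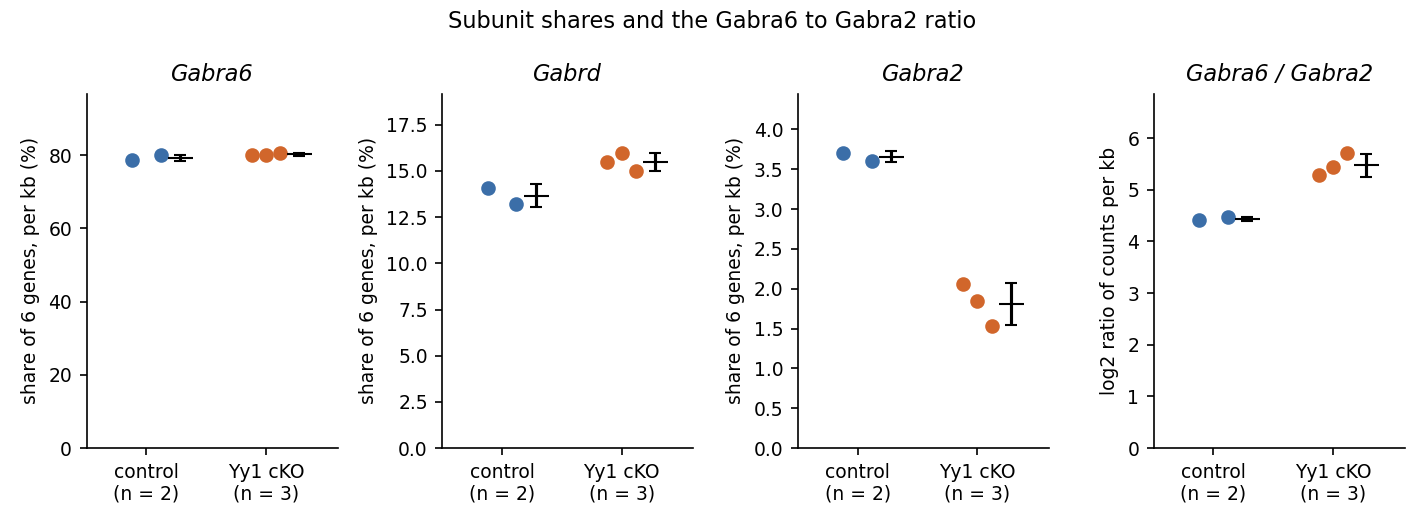
Shares of Gabra6, Gabrd and Gabra2 in the summed counts per kb of exon of the 6 genes, in percent, and the log2 ratio of Gabra6 to Gabra2 per kb. Points are libraries and bars are mean ± SD; the share of Gabra6 stays near 80% in every library while the share of Gabra2 and the ratio separate the groups.

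Ratios set Gabra6, the alpha subunit of mature granule neurons, against Gabra2 and against the sum of Gabra2, Gabra3 and Gabra5. As Gabra2 and Gabra3 are also known from the other cell types named above, these ratios do not compare mature with young neurons alone. Per kb, Gabra6 exceeded Gabra2 by 21.2 and 22.2 times in the control libraries and by 38.8, 43.2 and 52.7 times in the Yy1 cKO libraries. Every Yy1 cKO library was above both controls, and the log2 ratio differed by 1.04 (4.44 ± 0.043 against 5.48 ± 0.22, SD, n = 2 and 3, exact permutation p = 0.1). Against the sum of Gabra2, Gabra3 and Gabra5 the log2 ratio of Gabra6 went from 3.89 ± 0.074 to 4.88 ± 0.17 (difference 0.99, exact permutation p = 0.1). The ratio of the 2 falling genes overlapped between the groups (log2 ratio of Gabra3 to Gabra2 -1.18 ± 0.13 and -1.08 ± 0.16, exact permutation p = 0.4). Over the 10 shares and ratios tested, the 7 at p = 0.1 had an adjusted p of 0.143 by the same exact test, and the design could not have reached 0.05.

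Read by the codon shown above, Gabra4 and Gabra6, which carry arginine at the benzodiazepine site, together made up 93.6% and 94.0% of the counts per kb of the 5 alpha genes in control libraries and 96.5%, 96.7% and 97.2% in Yy1 cKO libraries. Nearly all of this was Gabra6, at 91.9 ± 0.27% (SD, n = 2) and 94.8 ± 0.30% (SD, n = 3) of the 5 genes. These shares are of transcripts of the 5 genes named and not of all receptors in the tissue. Not every alpha subunit gene is among the 5, so the share of either class over all alpha transcripts cannot be read from them.

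The genes lie in clusters with other subunits of the receptor, and neighbours did not all change alike. On chromosome 5 Gabrg1, Gabra2, Gabra4 and Gabrb1 lie between 70751047 and 72149037. Gabra2 was lower there, while Gabrg1, at mean levels of 20.7 and 19.1 CPM, did not pass (-0.11, adjusted p = 0.60). Gabrb1 stood at 59.1 ± 3.1 CPM (SD, n = 2) and 103 ± 23.3 CPM (SD, n = 3). Its log2 fold change of 0.80 ± 0.21 (SE) missed the threshold (adjusted p = 0.060). It passed with DESeq2 (adjusted p = 1.5e-05) and without Yy1 cKO 2 (0.95, adjusted p = 0.0044) or Yy1 cKO 3 (0.62, adjusted p = 0.0013). Gabrb1 also passed with limma-voom (adjusted p = 0.013), limma-trend (0.0099), dispersion not robust (0.0103), Xist as a covariate (0.048) and the replicate block. With RLE size factors (adjusted p = 0.0585), upper quartile scaling (0.0632) or a filter at 1 CPM (0.0515), Gabrb1 missed the threshold. It did not pass without control 1 (adjusted p = 0.216), control 2 (0.18) or Yy1 cKO 1 (0.126), with no filter on low counts (0.126) or with library size as the only scaling (0.0877). On chromosome 11 Gabrb2, beside Gabra6, rose from 261 ± 9.0 to 340 ± 2.3 CPM (0.38 ± 0.056, SE, adjusted p = 0.0012). On chromosome 7 Gabrg3, near Gabra5, did not pass (-0.10, adjusted p = 0.79).

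Of the 12 other subunit genes listed, 7 were tested, 1 rose (Gabrb2) and 0 fell, with a median log2 fold change of -0.07. These counts stand beside 10.7% of all genes tested called higher and 12.6% called lower. Gabrr2 did not pass either (-0.11, adjusted p = 0.89). Gabre, Gabrp, Gabrq, Gabrr1 and Gabrr3 were below the filter, with mean levels of at most 0.35 CPM in either group.

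**Figure D3:**
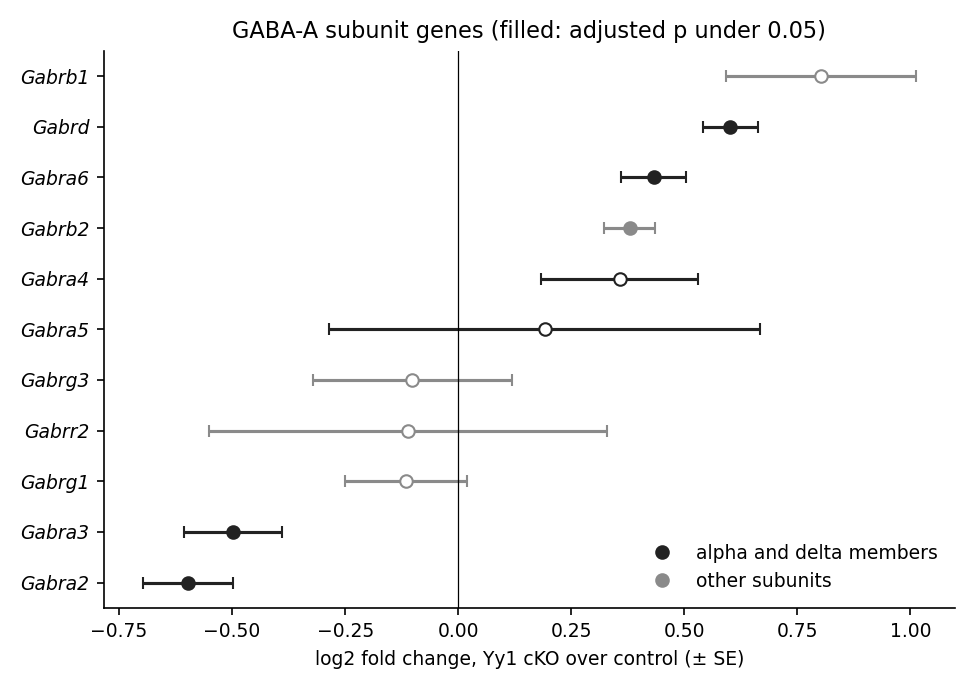
Log2 fold change of Yy1 cKO over control with its standard error for 11 tested subunit genes (black, the 6 alpha and delta genes; grey, the others; filled symbols, adjusted p under 0.05). Gabrd, Gabra6 and Gabrb2 lie to the right of 0 with filled symbols and Gabra2 and Gabra3 to the left; Gabrb1, farthest right, has an open symbol.

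Genes that assemble, anchor and move the receptor changed in both directions. Of 25 tested, 6 rose and 6 fell, with a median of 0.05. The background for this list and those below was 10.7% of all genes tested called higher and 12.6% called lower. The 6 that rose became 3 without control 2, and the 6 that fell became 2 without control 1, 1 without control 2 and 3 without Yy1 cKO 2. Plcl2, a phospholipase-like binding protein of the receptor, rose from 74.6 to 104 CPM (0.48 ± 0.057, SE, adjusted p = 3.2e-04). Mdga1, which blocks neuroligin 2, fell by 0.76 on the log2 scale, with means of 41.3 and 24.45 CPM (adjusted p = 3.7e-04). Gphn itself, the gephyrin scaffold, stood at 95.7 and 98.3 CPM (0.04, adjusted p = 0.69), and Rdx, radixin, which anchors receptors with Gabra5, fell by 0.17 on the log2 scale (adjusted p = 0.0496).

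Genes of GABA synthesis, transport and the chloride gradient were higher in 6 of 11 cases and lower in 0, with a median of 0.23. For this list and the next, the shares over all genes tested were 10.7% higher and 12.6% lower. Without control 2 the count was 3, and without Yy1 cKO 3 1 gene was lower. Slc12a5, the chloride exporter KCC2 whose rise turns GABA inhibitory, went from 356 to 474 CPM (0.41 ± 0.071, adjusted p = 0.0025). Slc12a2, the chloride importer NKCC1, was called higher too, from 212 to 249 CPM (0.23 ± 0.060, SE, edgeR adjusted p = 0.0215). The balance of these 2 transporters was not tested. Gad1 and Gad2, which make GABA, rose by 0.60 and 0.62. In neurosteroid synthesis, whose products act strongly on receptors with Gabrd, 5 of 8 genes were tested, 0 rose and 1 fell: Srd5a1, the 5-alpha reductase, went from 17.0 to 11.4 CPM (-0.57 ± 0.11, SE, adjusted p = 0.0051), a call that was lost without control 2.

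Markers of granule neuron stages moved with the 4 called genes. Among all genes tested, 10.7% were called higher and 12.6% lower. Of 20 mature granule neuron markers 11 rose and 2 fell, Kcnk9 (-0.49) and Cadps2 (-0.32), with a median of 0.39. Their summed level was 11400 to 11430 CPM in the controls and 13190 to 14840 CPM in Yy1 cKO. Kcnd2 rose by 0.64, Car4 by 0.96, Grin2c, the mature NMDA receptor subunit, by 0.71 and Chn2 by 0.65. Gabrd and Gabra6, with 0.60 and 0.43, lay below these 4 genes and above the median of the list. Only 1 of the 2 markers that fell was called without control 1, control 2 or Yy1 cKO 1. Of 24 markers of precursors and immature granule neurons 21 fell and 0 rose, with a median of -1.94. Their summed level was 3482 to 3609 CPM in the controls and 1477 to 1716 CPM in Yy1 cKO. Dcx (-3.88), Sox11 (-3.72), Igfbpl1 and Sox4 (-2.31) had the smallest p-values. Igfbpl1 counts were 646 and 575 for the control libraries against 3, 1 and 2 for Yy1 cKO. Gabra2 and Gabra3, at -0.60 and -0.50, fell less than the median of that list. The part of cell maturity in the change of the subunit genes was not tested.

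**Figure D4:**
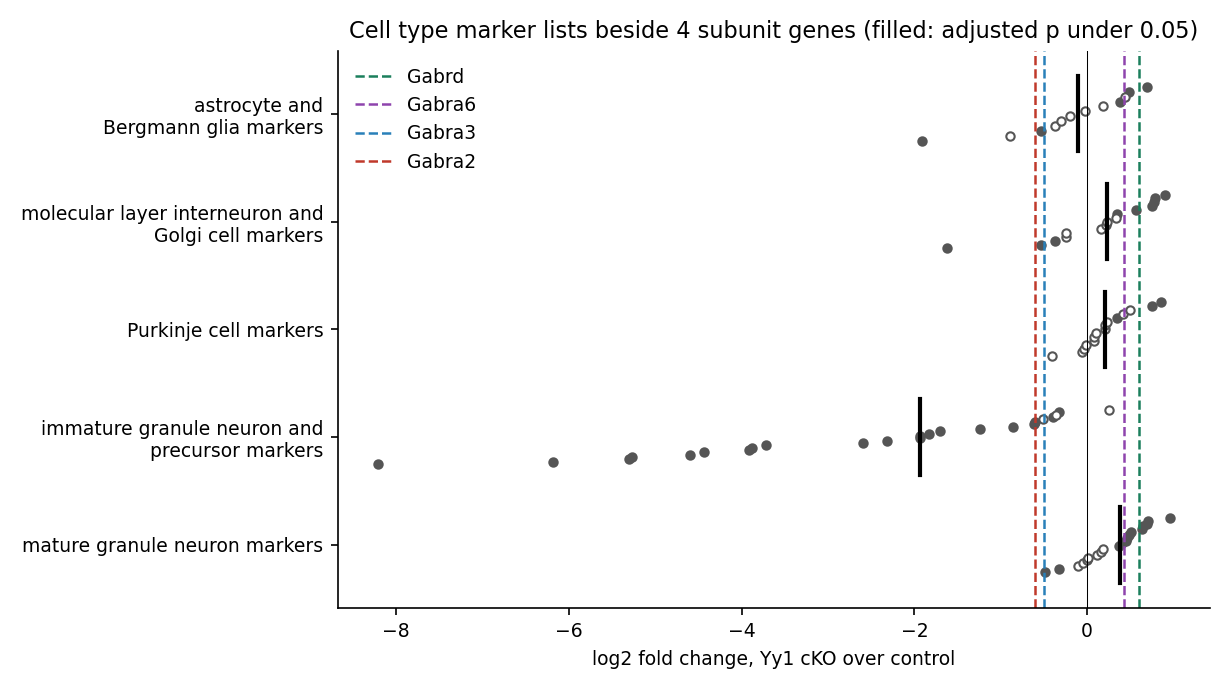
Log2 fold change of each tested gene in 5 marker lists (points; filled, adjusted p under 0.05; black bar, list median), with dashed vertical lines at the values of Gabra2, Gabra3, Gabra6 and Gabrd. Most markers of immature granule neurons and precursors lie left of Gabra2, while Gabra6 lies near the median of mature granule neuron markers.

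Markers of the other cell types in the tissue were counted in the same way, beside 10.7% of all genes tested called higher and 12.6% called lower. Small counts in lists of 9 to 15 genes can lie near those shares. Of 15 genes marking Golgi cells and molecular layer interneurons 6 rose and 3 fell (Sst, Npas3 and Ptprk), with a median of 0.23 and summed levels of 756.3 to 774.9 CPM in the controls and 954.2 to 1001 CPM in Yy1 cKO. Of 12 astrocyte and Bergmann glia markers 3 rose and 2 fell (Fabp7 and Aqp4), with a median of -0.11 and summed levels of 4093 to 4259 and 4376 to 5203 CPM. Of 15 Purkinje cell markers 3 rose (Itpr1, Aldoc and Homer3) and 0 fell, with a median of 0.21 and summed levels of 5970 to 6052 and 6968 to 8331 CPM. Of 9 unipolar brush and nuclear neuron markers 1 rose (Spp1) and 2 fell (Slc17a6 and Otx2), with summed levels of 175.7 to 176.1 and 154.1 to 166.9 CPM. Of 9 markers of the oligodendrocyte lineage 0 rose and 4 fell, and of 9 of microglia and endothelium 1 rose and 3 fell. Several of these small counts moved with 1 library left out: risers among Purkinje markers became 1 without Yy1 cKO 1 or 2 and 5 without Yy1 cKO 3, those among astrocyte and Bergmann glia markers became 1 without control 2, and the 4 fallen oligodendrocyte markers became 2 without control 1 or Yy1 cKO 2 and 1 without control 2. The 2 fallen astrocyte and Bergmann glia markers became 1 without control 1, control 2 or Yy1 cKO 2. The riser of microglia and endothelium was lost without control 1, control 2, Yy1 cKO 1 or Yy1 cKO 2. Risers among unipolar brush and nuclear neuron markers became 0 without control 1 or Yy1 cKO 1 and 2 without Yy1 cKO 3.

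Genes of forebrain, brainstem and choroid plexus were scarce, and their calls stand beside the same shares of 10.7% higher and 12.6% lower. Of 15 listed 6 were tested, 1 rose (Ttr, 0.27 to 0.81 CPM) and 2 fell, among them Neurod6 (4.70 to 2.21 CPM), and their summed level was 14.7 to 15.9 CPM in the controls and 8.06 to 9.36 CPM in Yy1 cKO. The call of a riser was lost without control 1, control 2, Yy1 cKO 1 or Yy1 cKO 3. Hoxb3 and Hoxa5 had no counts in any library. Gabra2 alone stood above this whole sum in every library. The part of these cell types in the changes of the subunit genes was not tested.

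Outside the lists, the genes whose profile over the 5 libraries was most like that of each subunit gene were found among protein-coding genes with a mean of at least 1 CPM, by the root mean square distance between log2 CPM profiles after removal of each gene's mean. Gabra6 was nearest to Nrn1 (distance 0.0077, 58.1 to 78.8 CPM), followed by Usp25 and Atp6v1a. Gabrd was nearest to Dnajc27, Rnf123 and Ubap1l (0.025 to 0.027). Gabra2 was nearest to Pfkfb3, Pcdhb5 and Arap3 (0.038 to 0.045), Gabra3 to Dcakd, Kdm2b and Rap2a (0.014 to 0.021), Gabra4 to Actn2, Hsd17b11 and Agmo (0.058 to 0.070) and Gabra5 to Fam180a, A4galt and Ccm2l (0.077 to 0.11). The likeness is over 5 libraries in 2 groups and is a description only.

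The promoter windows of Gabra6 and Gabra2 are shown because these genes changed in opposite directions. Each window runs from 250 bases before the start of transcription and covers 50 bases from the start on (RefSeq, GRCm38.p6, minus strand), and capitals mark the NFI half-site TTGGC or its complement GCCAA. NFI proteins are known activators of Gabra6 in granule neurons. Nfib, an NFI gene among the immature granule neuron markers, fell from a mean of 815.6 to 449.1 CPM (log2 fold change -0.86, edgeR adjusted p = 2.6e-05). Other NFI genes are not reported here, and a link between NFI and the subunit genes was not tested.

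Gabra6, chr11:42321023-42321322: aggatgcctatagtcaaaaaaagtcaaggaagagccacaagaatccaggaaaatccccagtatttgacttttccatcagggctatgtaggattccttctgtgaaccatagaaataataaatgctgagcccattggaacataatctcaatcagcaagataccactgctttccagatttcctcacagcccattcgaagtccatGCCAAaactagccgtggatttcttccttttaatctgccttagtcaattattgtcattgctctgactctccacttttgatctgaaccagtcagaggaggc
Gabra2, chr5:71095800-71096099: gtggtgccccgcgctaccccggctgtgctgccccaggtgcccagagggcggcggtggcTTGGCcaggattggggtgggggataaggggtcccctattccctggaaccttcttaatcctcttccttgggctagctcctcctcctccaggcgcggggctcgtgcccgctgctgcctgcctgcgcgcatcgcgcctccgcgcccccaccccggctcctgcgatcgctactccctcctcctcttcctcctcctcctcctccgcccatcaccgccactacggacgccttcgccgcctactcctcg

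The Gabra6 window held 1 half-site, 49 bases before the start, and had a GC content of 42.0%. The Gabra2 window held 1, 192 bases before the start, and had a GC content of 70.0%. RefSeq windows were matched for 5 of the 6 genes, in 6 windows. Gabra4 held 2 half-sites and Gabra3 and Gabra5 held 0, and 46.7% of 32851 promoter windows hold at least 1. The YY1 motif GCCATNTT, searched like the half-site on both strands and sharing the letters GCCA with its complement, had 0 matches in all 6 windows, against 6.1% of all windows with a match. These matches describe the letters in the windows and nothing about binding.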

How the data were processed

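The 6 genes, the gene lists and the tests were chosen with earlier results of these data known. The deposited raw read counts are whole numbers per gene, made by the authors with FastQC 0.11.8, Trimmomatic 0.39, STAR 2.7.1a and featureCounts on GRCm38, per the submitters' processing notes, from strand-specific libraries depleted of ribosomal RNA, per the labels' protocols. How the counting treated strand and multi-mapped reads is not stated. The deposited normalized signal equals the raw count divided by 1 constant per library (0.969 to 1.07) and was used in 1 alternative only. Symbols and exon lengths came from GENCODE M21 (181 of 55421 identifiers unmatched).

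Counts were tested with edgeR 4.0.16 in R 4.3.3 (TMM, filterByExpr, quasi-likelihood F test with robust dispersion, no covariate), which was tested on simulated data first. Standard errors came from the F statistic. Lists are described by counts and medians. Shares and ratios used counts per kb of merged exons and an exact permutation test over libraries. Alternatives were other scalings, filters and thresholds, DESeq2 1.42.0, limma 3.58.1 (voom, and trend on log2 of the signal plus a pseudocount of 1), Xist as a covariate, a replicate block, other gene lengths and each library left out. From each list the text names up to 4 genes with the smallest p, those that moved against their list, every GABA-A subunit listed and the 3 genes most like each subunit gene; Gphn, Rdx and some others were chosen after their values were seen. Not every alpha subunit gene, other subunit or list gene that the rule names is reported here.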

Additional observations from a re-analysis of the deposited data

How the results depend on the processing

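The direction of Gabra2, Gabra3, Gabra6 and Gabrd was the same under all 16 alternative fits, and Gabra2, Gabra6 and Gabrd passed the threshold in each; since the groups of these genes do not overlap, leaving out a library could hardly turn a direction. Log2 fold changes ranged from -0.68 to -0.50 for Gabra2, from -0.58 to -0.46 for Gabra3, from 0.35 to 0.52 for Gabra6 and from 0.52 to 0.63 for Gabrd. The 2 genes called lower became 1 without control 1 or control 2, where the call of Gabra3 was lost, and stayed at 2 without each Yy1 cKO library; a single control left in the fit is taken to vary like the Yy1 cKO group. Gabra5 was not tested in every alternative fit because filters removed it, and its log2 fold change ranged from -0.24 to 0.80 without passing. The rise in the share of Gabra6 was 3.40 percentage points with counts not scaled by length and 3.00 points among the alpha genes alone. Without length scaling the share of Gabra2 differed by -4.83 points and that of Gabrd by 2.47.

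Same-numbered libraries correlated at 0.039 and 0.032 in their deviations from the group means. The 2 controls deviate from their mean by equal and opposite amounts, so these values cannot decide whether replicate numbers pair the libraries. With the replicate block 2 genes were called higher and 2 lower, as without it, and the log2 fold change of Gabra4 was 0.19. Replicate 3 exists only in Yy1 cKO, so the block takes up that library. The fit thus nearly repeats the one without Yy1 cKO 3 (log2 fold change of Gabra2 -0.501 in each) and is not a separate check. Scaling by library size alone lowered the median of all genes by 0.08 (log2) and called 1432 genes higher. Without control 1 or control 2, 920 and 887 genes were called higher and 1267 and 1300 lower, and with the block 3486 were called higher. Gabra5, with 6 to 12 counts, is limited by depth.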
